A study of Mus musculus with 4 samples.

Results

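The genes that cut damaged or misplaced bases out of DNA, and the endonucleases that open the strand afterwards, were followed in sorted mouse spleen B cells that the labels call germinal centre B cells. The set held 10 genes, chosen by symbol: the glycosylase genes Ung, Smug1, Tdg, Mbd4, Neil1, Neil2, Neil3 and Ogg1, and the AP endonuclease genes Apex1 and Apex2. Each symbol matched 1 row among 37646 genes in the count tables. Poly(A) RNA came from B220+ YFP+ spleen cells of C57BL/6 mice of the genotype YFPstopF/+ Cg1Cre/+, labelled YC and normal control. In these mice a Cre recombinase driven from the Cg1 (Ighg1) locus switches on a YFP reporter. Sheep red blood cells had been given to all mice as an immunisation and again 20 days later, and cells were collected 10 days after the second dose. YFP stays on in the descendants of a cell that once had Cre, so memory and plasma cells can be included with germinal centre cells. Age was not given. All 4 libraries, numbered 1 to 4, formed 1 group, so levels are compared between genes within a library and between libraries, and no condition is compared.

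In base excision repair, a DNA glycosylase removes a damaged or wrong base, an AP endonuclease cuts the backbone at the empty site, and a polymerase and a ligase fill and seal the gap. Germinal centre B cells use the same enzymes for another purpose. There uracils arise in the antibody genes, and their removal by UNG leads to mutations and to the breaks of class switching. NEIL1, NEIL2 and NEIL3 act mainly on oxidised bases, OGG1 on 8-oxoguanine, and TDG and MBD4 on thymine or uracil opposite guanine, TDG also on oxidised forms of 5-methylcytosine.

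Total counts ran from 13777954 to 14629025 per library. Whether each library is a separate mouse is not stated in the labels, so the spread between libraries may be technical in part and p-values measure only that spread. Library 3 alone had transcripts of the Y-linked gene Ddx3y (1307 counts, at most 3 in the others), and it had 6 counts of Xist against at least 8689 in each of the others. By these genes library 3 came from male cells and the others from female cells. Library 3 therefore shares no mouse with the others, and sex cannot be told apart from that library. Results that rest on library 3 are therefore also given without it. Germinal centre markers were present, as 9 of 9 exceeded a transcripts-per-million (TPM) value of 1 in every library, with summed levels of 1017 to 1659 TPM. So were markers of naive and memory B cells (8 of 8 above 1 TPM in every library, summed 1554 to 2802 TPM) and of plasma cells (7 of 7, summed 1020 to 2049 TPM). T cell markers were measurable too, with 10 of 10 above 1 TPM in every library and summed levels of 356 to 673 TPM, against 5069 to 6885 TPM for 8 B lineage markers. Cd2 was the highest T cell marker, at 149 ± 16.7 TPM. It varied 1.28-fold between libraries and the others 2.26 to 3.34-fold, so these sums do not measure the share of T cells.

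Short reads cannot be placed equally well on all 10 genes, and this bears on their levels. Reads were 50 nt long, so every distinct stretch of 50 bases in each gene's annotated transcripts was checked for an exact copy in a transcript encoded elsewhere and for contact with an exon of another gene. Neil1, Ung and Smug1 were almost free of both, with 99.3%, 99.8% and 100% of their stretches usable. Tdg had 35.5% of its stretches copied elsewhere. The processed pseudogene Tdg-ps held most of them, at 1636 of 1972, and the 4 genes with Tdg copies had 6 counts in all libraries together. Apex1 had few copies (0.331%), but 61.7% of its exon bases lay opposite exons of Pip4p1, which left 38.8% of its stretches usable if counting ignored strand. The strand setting was not given in the sources used here. Apex1 had 18.7, 17.1, 20.1 and 19.2 CPM (counts-per-million) in libraries 1 to 4, against 74.0, 95.6, 99.7 and 107 CPM for Pip4p1.

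**Figure D1:**
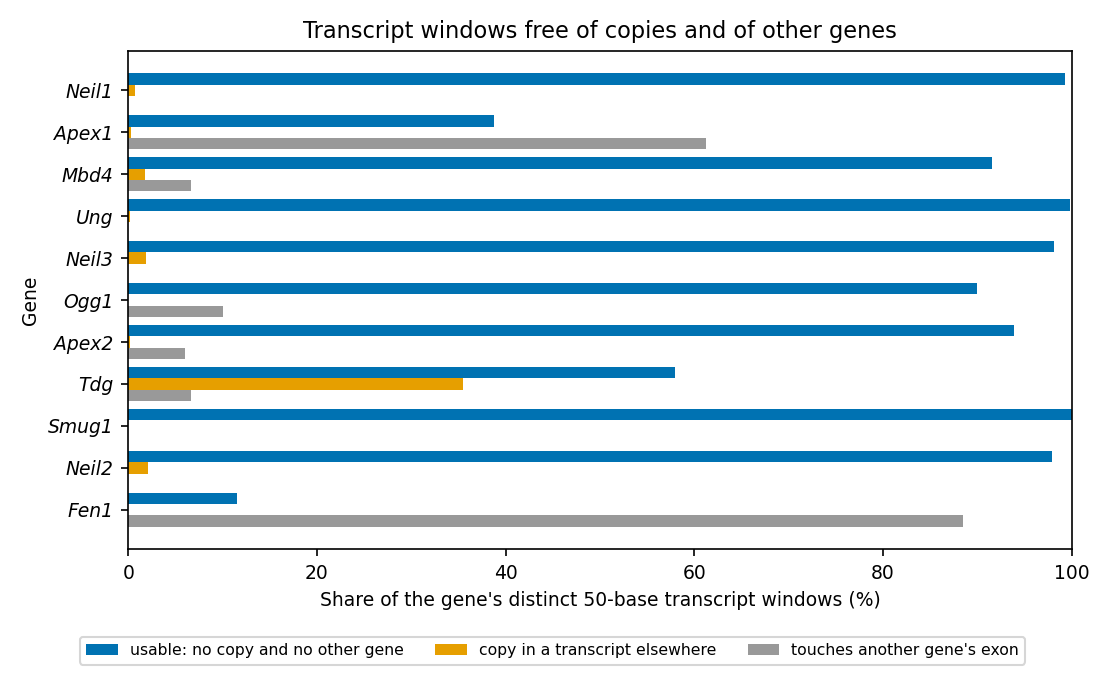
Horizontal bars give the share, in percent, of each gene's distinct 50-base transcript stretches that are usable, copied in a transcript elsewhere, or in contact with an exon of another gene on either strand, for the 10 genes and for Fen1. Tdg stands out for copies (35.5%), and Apex1 (61.2%) and Fen1 (88.5%) stand out for contact with another gene.

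The stretches behind these 2 limits are shown because they mark what a read can and cannot tell apart. They come from GENCODE M21 transcripts on GRCm38, the assembly named mm10, and are written 5′ to 3′ along the gene. A coding stretch of Tdg (chr10:82644254-82644303, plus strand) that also occurs letter for letter in Tdg-ps on chromosome 15 was taken from the middle of those with such a copy:
Tdg, copied: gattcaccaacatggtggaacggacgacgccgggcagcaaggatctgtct
A second stretch (chr10:82647954-82648003, plus strand) differs from Tdg-ps at 3 bases, in capitals, C4T, T19A and G50A, with positions counted from 1 at the 5′ end and the base of Tdg given first:
Tdg: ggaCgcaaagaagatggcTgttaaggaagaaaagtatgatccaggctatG
Tdg-ps: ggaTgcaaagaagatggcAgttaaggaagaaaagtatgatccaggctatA
Of 799 coding stretches of Tdg that lie within 1 exon, 427 (53.4%) occur in Tdg-ps. For Apex1, 610 of 755 such stretches (80.8%) lie wholly inside exons of Pip4p1 on the other strand, for example this one (chr14:50926617-50926666, plus strand of Apex1):
Apex1, inside Pip4p1: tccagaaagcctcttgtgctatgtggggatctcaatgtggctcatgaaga

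The 10 genes covered a range of more than 3 orders of magnitude in TPM, and Neil1 stood far above the rest. It supplied 82.8% ± 2.69 of their summed TPM (SD, n = 4), and the other 9 genes together reached 109 ± 20.6 TPM. By mean level the order was Neil1, Apex1, Mbd4, Ung, Neil3, Ogg1, Apex2, Tdg, Smug1 and Neil2. Of the 10 genes, 8 exceeded 1 TPM in every library (80.0%), against 53.3% of 18712 protein-coding genes. Their median was 12.0 ± 2.51 TPM and that of the protein-coding genes 2.40 ± 0.141 TPM. The lead of Neil1 over Apex1 (4.13 ± 0.22 on the log2(TPM + 0.1) scale), of Ung over Neil3, of Ogg1 over Apex2, of Tdg over Smug1 and of Smug1 over Neil2 was present in 4 of 4 libraries and larger than its SD. The order was not settled between Apex1 and Mbd4 (0.27 ± 0.51), Mbd4 and Ung (0.26 ± 0.55), Neil3 and Ogg1 (-0.03 ± 0.53), or Apex2 and Tdg (0.59 ± 0.58, higher in 3 of 4 libraries). TPM is per length of the union of exons, and the lead of Ogg1 over Apex2 rests on that division. In CPM Apex2 was the higher in every library, at 19.4, 16.1, 18.2 and 14.7 against 12.5, 11.0, 10.5 and 11.7 for Ogg1. A TPM in a bulk sample cannot tell fewer expressing cells from less RNA per cell.

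**Figure D2:**
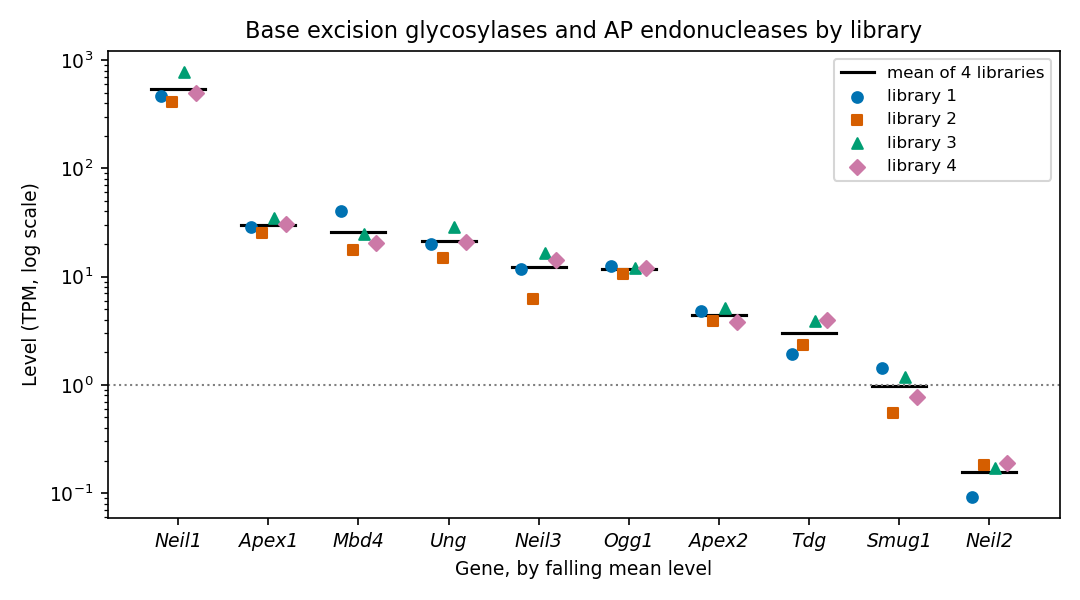
Points give the level of each gene in each of the 4 libraries, in TPM on a log axis, black lines their means, and the dotted line 1 TPM. Neil1 lies between 412 and 776 TPM, above every other gene in every library, and Neil2 lies below 0.2 TPM.

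Ung, the main uracil-DNA glycosylase of mutating B cells (chromosome 5, 114130386 to 114139323, plus strand), had 19.8, 14.9, 28.9 and 20.9 TPM in libraries 1 to 4. Library 3 was highest and library 2 lowest, and the mean of 21.1 ± 5.79 was 18.5 without library 3. Smug1, a second uracil glycosylase (chromosome 15, 103153290 to 103167092, minus strand), had 1.42, 0.548, 1.19 and 0.771 TPM from 56, 22, 43 and 30 counts. The lowest Ung value was thus above the highest Smug1 value. Within libraries Ung exceeded Smug1 by 4.33 ± 0.42 log2 units, 20.1-fold, in 4 of 4 libraries. The exact two-sided sign-flip permutation test gave p = 0.13 (adjusted p = 0.150 over the 6 pairs of genes compared). In this test 0.13 is the smallest p that 4 libraries allow, so no pair could pass 0.05.

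Mbd4 and Tdg, whose products can take uracil or thymine from opposite guanine, were also far apart. Mbd4, which has a methyl-CpG binding domain beside its glycosylase domain (chromosome 6, 115840697 to 115853371, minus strand), had 40.6, 17.6, 25.0 and 20.4 TPM. Library 1 stood alone at the top, and the other 3 libraries lay close together. Tdg (chromosome 10, 82629828 to 82650799, plus strand) had 1.91, 2.33, 3.85 and 3.99 TPM from 66, 82, 122 and 136 counts, and was lowest in library 1. Every Mbd4 value was above every Tdg value. Ung exceeded Tdg by 2.79 ± 0.40 log2 units in 4 of 4 libraries (exact sign-flip permutation p = 0.13, adjusted p = 0.150). With levels computed per usable stretch, an alternative chosen after the copies had been seen, Tdg stood at 5.05 ± 1.76 TPM instead of 3.02 ± 1.06 and the difference was 2.06. Ung minus Mbd4 was -0.26 ± 0.55, with Ung higher in 2 of 4 libraries (exact sign-flip permutation p = 0.625, adjusted p = 0.625), and 0.00 without library 1. Of the summed TPM of Ung, Mbd4, Tdg and Smug1, Mbd4 held 63.7, 49.7, 42.5 and 44.3% and Ung 31.0, 42.2, 49.0 and 45.4%, so Mbd4 led in libraries 1 and 2 and Ung in libraries 3 and 4.

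Among the NEIL genes, whose products take out oxidised pyrimidines and other oxidised bases, Neil1 stood alone. Neil1 (chromosome 9, 57142800 to 57148305, minus strand) had 469, 412, 776 and 498 TPM, from 5651, 5045, 8564 and 5908 counts. Its mean, 539 ± 162, was at percentile 99.6 of protein-coding genes, and 460 without library 3. Neil3, which also acts on single-stranded DNA and on crosslinks met by replication forks (chromosome 8, 53586867 to 53639065, minus strand), had 11.8, 6.22, 16.5 and 14.1 TPM. Library 2 was the low one. Neil2 (chromosome 14, 63182443 to 63193856, minus strand) was nearly silent, with 3, 6, 5 and 6 counts. These are at or little above the limit of 3 counts that a count of 0 allows, 0.205 to 0.218 CPM, so an order of libraries cannot be read for Neil2. Neil1 exceeded Neil3 by 5.50 ± 0.39 log2 units, 45.3-fold, and Neil2 by 11.00 ± 0.45, each in 4 of 4 libraries (exact sign-flip permutation p = 0.13, adjusted p = 0.150 for both). The second difference depends on the pseudocount, and was 8.82 with a pseudocount of 1. The size of the first depends on gene length. It was 4.80 with the longest annotated transcript as length and 3.94 without division by length.

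The 250 bases before the start annotated by RefSeq are shown for Neil1, the most abundant gene of the set, and for Smug1, the lowest with an entry in the RefSeq table (GRCm38.p6), which matched 8 of the 10 genes. Capitals mark matches, on either strand, to the CCAAT box, to the GC box motif GGGCGG, to the TATA box motif TATAAA and to CAGGTG, an E-box, none of which overlap here. The first line runs from chr9:57148306-57148555 and the second from chr15:103163285-103163534, both minus strand and written 5′ to 3′ towards the RefSeq start. For Smug1 the GENCODE span used for its counts begins further upstream, so its window lies inside that span:
Neil1: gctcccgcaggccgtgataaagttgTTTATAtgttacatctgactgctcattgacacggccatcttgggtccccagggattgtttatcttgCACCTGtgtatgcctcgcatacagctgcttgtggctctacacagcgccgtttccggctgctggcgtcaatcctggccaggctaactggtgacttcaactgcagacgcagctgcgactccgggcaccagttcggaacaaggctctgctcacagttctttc
Smug1: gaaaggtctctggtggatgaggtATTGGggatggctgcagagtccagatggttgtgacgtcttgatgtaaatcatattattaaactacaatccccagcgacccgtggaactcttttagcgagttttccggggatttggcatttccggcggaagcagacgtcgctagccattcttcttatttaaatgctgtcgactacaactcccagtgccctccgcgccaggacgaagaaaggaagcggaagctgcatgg
Neil1 had 1 match each to the TATA box and E-box motifs, both read on the opposite strand, and Smug1 had 1 to the CCAAT box. Among 32851 promoters of the same length, 12.4% held TATAAA, 17.2% the E-box, 33.8% the CCAAT box and 32.7% the GC box. Of the other 6 members with an entry, Ung had 2 matches to the GC box, Mbd4 had 2 to the CCAAT box and 1 to the GC box, Ogg1 had 2 to each of these boxes, Apex1 1 to each, Tdg 1 to the CCAAT box, and Neil3 none. None of the 6 held the TATA box or E-box motif. Such matches are letters in a window and not measured sites.

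Ogg1, which removes 8-oxoguanine (chromosome 6, 113326972 to 113335068, plus strand), was the steadiest of the glycosylase genes that were well counted, at 12.5, 10.6, 11.9 and 12.1 TPM. Its coefficient of variation across libraries was 8.16% on the scale of normalised CPM, which is CPM corrected with TMM factors for library composition, and counting error alone would give about 7.86%. It shares 232 exon bases (10.6%) with Camk1 on the other strand, and Camk1 averaged 1.97 CPM.

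Of the AP endonuclease genes, Apex1 was listed above Apex2 in every library. Apex1 encodes the main AP endonuclease (chromosome 14, 50924968 to 50927139, plus strand) and had 28.8, 25.3, 35.0 and 30.5 TPM. Apex2 encodes a weaker enzyme that acts with PCNA (chromosome X, 150519519 to 150589868, minus strand) and had 4.85, 3.88, 5.16 and 3.79 TPM. Apex1 exceeded Apex2 by 2.73 ± 0.18 log2 units, 6.65-fold, in 4 of 4 libraries (exact sign-flip permutation p = 0.13, adjusted p = 0.150). Across libraries the normalised CPM of Apex1 varied by 3.32%, less than the 6.12% of counting error. The size of the difference rests on gene length and on the treatment of the overlap with Pip4p1. Without division by length the genes were level, at a difference of 0.14, and per usable stretch it was 3.95, with Apex1 at 72.5 ± 9.83 TPM. The annotated Apex2 locus also contains exons of the erythroid gene Alas2 (311 shared bases) and of Pfkfb1 (123 shared bases), both on the other strand. Alas2 averaged 2.30 CPM, with 1.70, 1.02, 1.44 and 5.03 CPM in libraries 1 to 4, and Pfkfb1 averaged 7.72 CPM.

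Differences between libraries were tested gene by gene on the whole table. An intercept-only edgeR quasi-likelihood fit asked whether a gene varied more than genes of its level do. Of the 10 genes, 9 entered the fit and Neil2 was too low. None of the 9 passed an adjusted p of 0.05, where 1 of 11982 genes passed (0.00835%). At an unadjusted p under 0.05 there was 1 of the 9, Mbd4, and 4.97% of all genes tested. Mbd4 varied 8.86 times as much as the trend (edgeR quasi-likelihood adjusted p = 0.771), and its normalised CPM was 97.5, 46.6, 51.8 and 46.5 in libraries 1 to 4. The ratio rested on library 1, since Mbd4 stood at 0.206 times the trend when it was left out. Neil3 followed at 4.46 times the trend (edgeR quasi-likelihood adjusted p = 0.990), with 29.9, 17.4, 36.0 and 33.8 normalised CPM, and stood at 0.423 times the trend without library 2. Smug1, Tdg, Ung and Neil1 lay between 1.71 and 2.28 times the trend, and Apex2, Ogg1 and Apex1 below it.

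**Figure D3:**
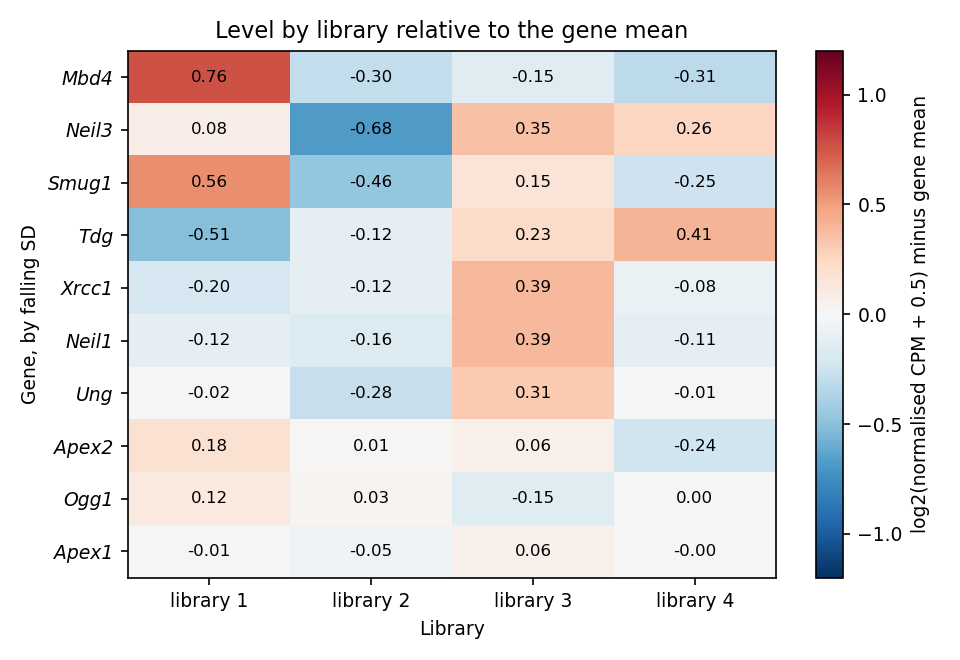
Each cell gives log2(normalised CPM + 0.5) in 1 library minus the mean of the gene over 4 libraries, for 9 of the genes (Neil2 left out for its low counts) and for Xrcc1, sorted by SD. Mbd4 is highest in library 1, at 0.76, and Neil1 and Xrcc1 are highest in library 3, both at 0.39.

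Mbd4 was highest in library 1. Of the 9 germinal centre markers, 4 were also highest there (Bcl6, S1pr2, Gcsam and Mybl1) and the other 5 in library 3, and their sum was 1465, 1017, 1659 and 1310 TPM in libraries 1 to 4. Library 1 also had the highest sums of T cell markers (673, 362, 356 and 569 TPM in libraries 1 to 4), of macrophage and monocyte markers (192, 94.4, 152 and 139 TPM) and of plasma cell markers (2049, 1888, 1020 and 1924 TPM), and the lowest sum of naive and memory B markers (1554, 2802, 1996 and 2085 TPM). Lyz2 alone gave 114, 32.8, 66.5 and 59.1 TPM of the macrophage and monocyte sums. Jchain alone gave 1574, 1368, 632 and 1431 TPM of the plasma cell sums. By gene, library 1 was highest for 9 of 10 T cell, 4 of 7 macrophage and monocyte and 4 of 7 plasma cell markers. The part of any of these cell types in the Mbd4 level was not tested. Ung did not share the peak, since its normalised CPM was 49.2 in library 1 and 40.9, 62.0 and 49.3 in the others.

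Ung was highest in library 3 and lowest in library 2, and so were the summed S phase markers (1354, 978, 1927 and 1425 TPM) and G2/M markers (950, 649, 1208 and 947 TPM). Sums of the 10 genes and of germinal centre markers had the same highest and lowest libraries. So did sums of linked repair genes, both those acting after the cut and those of mismatch repair and bypass. Mitochondrial genes, which enter the TPM total, took 20.6, 23.3, 18.1 and 19.8% of counts in libraries 1 to 4. Immunoglobulin and T cell receptor genes took 5.27, 5.49, 2.36 and 4.26%. Their weight in TPM was larger, since taking all these genes out of the total raised each of the 10 levels 2.12 to 2.18-fold. The sums above are in TPM and were not corrected for this composition. Ung spanned 1.94-fold in TPM and 1.51-fold in normalised CPM. Library 2, where Neil3 was lowest as well, had the highest sum of naive and memory B markers, with 7 of 8 of them highest there, and library 3 the lowest sum of plasma cell markers. The part of cycling cells or of these other cells in the levels was not tested. Among 8342 genes with at least 10 CPM, the pattern of Ung over the 4 libraries was nearest to those of Mcm7, a subunit of the replication helicase, the condensin gene Ncapd2, Lrch1, Ezh2, which encodes the histone H3 lysine methyltransferase of PRC2, and the mitochondrial ribosome gene Mrpl4. Their root mean square distance from Ung was 0.0109 to 0.0191 on the centred log2 scale. Neil1 differed from Ung in having 1 high library and 3 level ones, at 399, 388, 570 and 402 normalised CPM, and without library 3 it stood at 0.0270 times the trend. Nearest to it were Lpcat4, Mdm1, Ints7, Bicra and Brd8, at distances of 0.0256 to 0.0328. A pattern over 4 libraries has few ways to differ, and these lists are descriptions only.

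The rest of the excision pathway was present as well. Of 3 further glycosylase genes, all exceeded 1 TPM in every library: Mutyh, which removes adenine opposite 8-oxoguanine, had 17.2 ± 4.82 TPM, the alkyladenine glycosylase gene Mpg 5.66 ± 0.711, and Nthl1, whose product shares substrates with NEIL1, 1.63 ± 0.382. Neil1 was above each of them in every library. The 13 genes that act after the cut all exceeded 1 TPM in every library and had a median of 27.6 ± 1.84 TPM. The highest were Parp1 (163 ± 29.3), which senses strand breaks, the sliding clamp gene Pcna (150 ± 28.9), the scaffold gene Xrcc1 (133 ± 39.7) and the ligase gene Lig1 (131 ± 35.1). Polb, the usual gap-filling polymerase, had 19.4 ± 3.20 TPM, and Lig3, the partner of XRCC1, 7.90 ± 0.276. Aplf was the lowest, at 2.69 ± 0.580. Fen1, the flap endonuclease gene of long-patch repair, was listed at 5.75 ± 0.891 TPM, but 88.5% of its stretches touch exons of other genes, mostly the antisense gene Gm10143, and its level is uncertain for the same reason as that of Apex1. The limit also holds in part for Mpg, with 35.7% of exon bases opposite Nprl3 (46.4 CPM). It holds for Lig3 too, with 25.1% opposite Rffl (8.49 CPM). Pcna had 19.1% of its stretches copied elsewhere.

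Of 3 genes that limit uracil in DNA or its removal, Dut and Samhd1 were each above Ung in every library. Dut, whose enzyme removes dUTP before it enters DNA, had 101 ± 25.9, and the dNTP hydrolase gene Samhd1 110 ± 24.2. Fam72a, whose product lowers UNG protein in mouse B cells, was the lowest of the 3, at 11.3 ± 1.57 TPM, below Ung in every library. Of 6 genes of mismatch repair and of translesion bypass, all exceeded 1 TPM in every library, from Msh6 (73.4 ± 21.4) to Exo1 (8.46 ± 0.569). The TET genes, which make the oxidised bases that TDG removes, ran from Tet3 (10.3 ± 0.963) through Tet2 (3.91 ± 0.687) to Tet1 (0.339 ± 0.122).

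**Figure D4:**
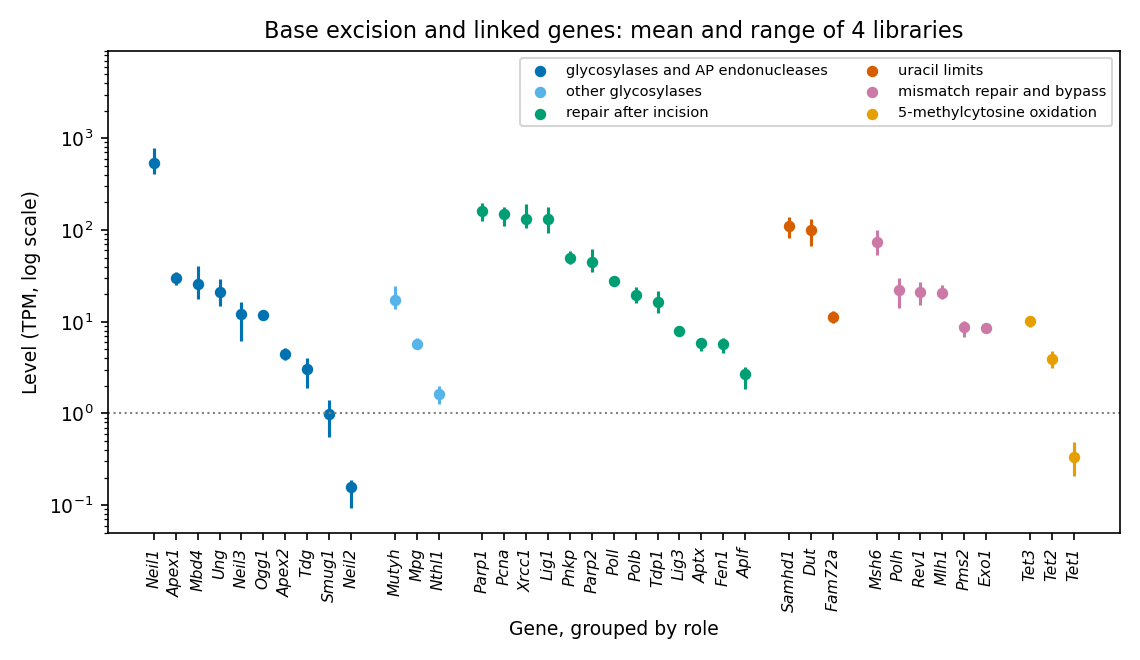
Points give the mean level of each gene over 4 libraries in TPM on a log axis, and vertical lines the range of the libraries, with genes grouped by role and the dotted line at 1 TPM. Neil1 at 539 TPM is above every other gene shown, and Neil2 and Tet1 stay below 1 TPM.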

How the data were processed

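The authors deposited raw read counts per gene, 1 table per library. The submitters' processing notes name mm10, STAR 2.5.2b, featureCounts 1.6.0 and FastQC. How reads with several matches were handled, the strand setting and the annotation release are not given in the sources used here. Totals were 13777954 to 14629025, so 3 counts correspond to 0.205 to 0.218 CPM. The spread between libraries was 0.542 to 1.04 times counting error for Neil2, Ogg1 and Apex1 and 1.90 to 15.7 times for the other members.

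CPM was computed from the deposited counts, and TPM from these and union exon lengths of GENCODE M21 (37536 of 37646 identifiers matched, without version suffix). Normalised CPM is TMM-scaled. Pairs were tested on log2(TPM + 0.1) by exact sign-flip permutation with Benjamini-Hochberg adjustment. The variation test used edgeR 4.0.16 under R 4.3.3 (filterByExpr filter, TMM, intercept-only glmQLFit, legacy = FALSE, quasi-dispersion over trend against the F distribution, Benjamini-Hochberg over 11982 genes). DESeq2 1.42.0 gave alternatives. On simulated counts, the variation test recovered 66.5% of 200 genes changed 4-fold in 1 library among 11747 and 98% of those changed 16-fold among 11731. Every simulated gene was drawn at the dispersion of the trend, with no scatter of genes about it as in real counts. The rates can therefore be higher than those for the deposited counts. Recovery of changes below 4-fold, and recovery in the deposited counts themselves, was not tested. No member spanned more than 2.34-fold in normalised CPM. Python 3.11.15 and scipy 1.17.1 did the rest.

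The members, lists and pairs were chosen with earlier results of these data known. Genes named are the 10 members, members of the listed pathways with the highest and lowest of each, genes whose exons overlap a member, and the 5 nearest in pattern to Ung and to Neil1. The 4 germinal centre markers named, and Cd2, Lyz2 and Jchain, were picked after their values were seen. Some genes of these pathways are not reported here. Library pairs differed by at least 26.4 times counting error in chi-square per degree of freedom, so none was a copy of another.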

Additional observations from a re-analysis of the deposited data

Results flagged for a closer look

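The difference of Ung minus Smug1 had 1 library apart from the others: 3.71 log2 units in library 1, against 4.53, 4.49 and 4.59 in libraries 2, 3 and 4. The gap between library 1 and the nearest of the others was 0.887 of the whole range, above Dixon's limit for 4 values, which chance passes in about 1 of 20 groups. The same limit was applied to the levels of the 10 genes and to the 6 pairs, and this was the only flag. That rate holds for each check, so 1 flag among them is a description only. Smug1 rested on 56 counts in library 1 and on 22 to 43 in the others. Without library 1 the difference was 4.54.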

How the results depend on the processing

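Of the 6 pairs, 5 kept their direction under every alternative; with 1 library left out they ran from 4.25 to 4.54 (Ung minus Smug1), 2.62 to 2.94 (Ung minus Tdg), 2.65 to 2.80 (Apex1 minus Apex2), 10.84 to 11.17 (Neil1 minus Neil2) and 5.33 to 5.62 (Neil1 minus Neil3). Ung minus Mbd4 turned to 0.01 with the longest transcript as length, and lay between -0.41 and 0.00 with 1 library left out. The median of the 10 members was 16.4 TPM with that length and 25.7 TPM when mitochondrial, immunoglobulin and T cell receptor genes were taken out of the total, which raised each of the 10 levels 2.12 to 2.18-fold; it was 11.2 to 13.1 TPM with 1 library left out. The variation test called 262 of 31026 genes with no filter and 63 of 11982 in its robust form. Without immunoglobulin and T cell receptor segments it called 0 of 11785 (607 at an unadjusted p under 0.05). DESeq2 gave 208 of 31026 as dispersion outliers. With 1 library left out the test called from 0 of 12204 (without library 2) to 19 of 12241 (without library 3), and 3 of 12071 without library 4. In the robust form every gene was tested against the largest prior degrees of freedom of any gene, which can raise the number called. The cause of these shifts was not tested. No member was called in the edgeR settings that tested it (9 alternatives, but 1 for Neil2), where the lowest adjusted p was 0.240, for Mbd4 with no filter (edgeR quasi-likelihood), and 0 of the 10 were DESeq2 dispersion outliers. With so small a share of all genes called, 0 of 10 says nothing particular about the members. No paired analysis was possible because there is 1 group. Depth limits Neil2 and, in part, Smug1.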
